A study of Mus musculus with 10 samples.

Results

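COX-deficient melanoma tumors were compared with COX-competent ones across all genes by bulk RNA sequencing. The comparison took the 3 libraries titled KO and CTR and the 4 titled WT and CTR, 7 of the 10 libraries of the series, and no measured value entered that choice. All 7 tumors grew from cells of a Braf-mutant mouse melanoma line that were injected under the skin of untreated C57BL/6 hosts 8 weeks old, and all were collected on day 4. The 4 Ptgs+/+ tumors came from wild-type tumor cells. The 3 Ptgs-/- tumors came from cells of the same line in which CRISPR/Cas9 had disrupted both Ptgs1 and Ptgs2, the genes of the cyclooxygenases COX-1 and COX-2. The hosts kept both genes, and the sources used here do not give whether the Ptgs-/- cells were a single clone. The other 3 libraries of the series, from Ptgs-/- tumors of hosts depleted of NK cells by antibodies, entered the estimate of the spread and no comparison.

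The 7 libraries held 8150556 to 12839174 counts of reads from the 3′ ends of transcripts, and no pair within a group agreed within sampling noise (chi-square per degree of freedom 8.28 to 30.1). The labels do not say that the tumors came from separate mice, so p-values measure the spread between these tumors. The titles carry 2 codes whose meaning the labels do not give. Ptgs+/+ replicate 4 and Ptgs-/- replicate 3 share the code that the other 5 libraries lack. Of 7025 genes with a mean of at least 20 CPM (counts per 1000000 of the scaled library total), 85 lay more than 2-fold below all 6 other libraries in Ptgs+/+ replicate 3 and 39 in Ptgs-/- replicate 1, against 0 to 5 in each of the other 5. Pigment genes, which mark melanocytes, were close to absent: of 15 melanoma lineage genes 4 passed the filter on low counts, among them Mitf, their transcription factor, at 17.3 to 30.4 CPM in Ptgs+/+ and 24.3 to 32.7 CPM in Ptgs-/- tumors, and the genes of melanin synthesis did not. Ddx3y and 3 other Y-linked genes had no count in any of the 7 libraries, and Xist was present in all of them.

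COX enzymes turn arachidonic acid into the precursor of the prostanoids, among them prostaglandin E2 (PGE2). PGE2 acts on receptors of its own, of which EP2 and EP4 raise cyclic AMP in the receiving cell, and it is known to restrain NK cells, T cells and dendritic cells and to favor neutrophils and inflammatory cytokines in tumors. Interferons, made by lymphocytes and many other cells, switch on antiviral, antigen-presenting and chemokine genes through STAT and IRF transcription factors, while cyclic AMP acts on transcription through CREB.

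The promoters of 4 genes whose levels are given below carry the motifs linked to these factors. They were picked as holders of these motifs from lists described below, so they do not stand for those lists. Each run is the 300 bases from 250 before to 50 after the start of the first transcript that RefSeq lists on GRCm38.p6, read 5′ to 3′ on the strand of the gene, and capitals mark the matches. The motifs searched on both strands, with overlaps allowed, were the STAT site TTCNNNGAA, the IRF core GAAANNGAA and the full CREB site TGACGTCA. Of all 27025 promoters of this length 8.47% held the first, 8.57% the second and 1.88% the third. For the 10617 promoters of genes tested below the shares were 6.94%, 7.49% and 3.14%. The CREB site was in 1 of 10 promoters of early cyclic AMP and CREB genes and in 1 of 5 promoters of EGF family genes. Fewer than 80% of the genes called higher or lower below had such a window (319 of 457 and 105 of 147), so no share over those genes was compared with these. Isg15 (chr4:156200769-156201068, minus strand) held 3 overlapping IRF cores, Igtp (chr11:58199306-58199605, plus strand) held a STAT site and an IRF core, Cxcl9 (chr5:92328030-92328329, minus strand) held an IRF core, and Areg (chr5:91139349-91139648, plus strand) held a CREB site.
Isg15: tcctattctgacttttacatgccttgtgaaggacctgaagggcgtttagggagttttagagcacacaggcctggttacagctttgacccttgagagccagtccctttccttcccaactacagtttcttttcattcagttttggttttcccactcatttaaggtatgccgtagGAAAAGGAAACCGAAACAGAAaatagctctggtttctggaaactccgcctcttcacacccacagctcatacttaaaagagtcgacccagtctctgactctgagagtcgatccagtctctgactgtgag
Igtp: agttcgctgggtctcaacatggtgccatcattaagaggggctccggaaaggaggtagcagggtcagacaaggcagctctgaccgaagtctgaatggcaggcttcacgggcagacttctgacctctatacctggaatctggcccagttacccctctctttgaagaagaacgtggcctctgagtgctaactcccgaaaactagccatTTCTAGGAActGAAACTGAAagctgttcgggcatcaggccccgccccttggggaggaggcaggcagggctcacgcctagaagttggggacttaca
Cxcl9: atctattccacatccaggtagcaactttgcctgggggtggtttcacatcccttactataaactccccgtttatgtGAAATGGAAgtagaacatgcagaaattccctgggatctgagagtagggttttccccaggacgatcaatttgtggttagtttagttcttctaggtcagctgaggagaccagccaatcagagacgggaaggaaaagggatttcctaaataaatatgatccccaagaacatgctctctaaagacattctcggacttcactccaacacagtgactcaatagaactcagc
Areg: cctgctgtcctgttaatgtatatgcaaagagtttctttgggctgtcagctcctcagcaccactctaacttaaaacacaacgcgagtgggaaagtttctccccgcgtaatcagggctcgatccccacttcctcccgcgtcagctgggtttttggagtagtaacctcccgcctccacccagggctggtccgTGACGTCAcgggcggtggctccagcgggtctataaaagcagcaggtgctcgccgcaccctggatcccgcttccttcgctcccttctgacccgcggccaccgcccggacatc
A match describes the letters of the window and not a bound site.

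Genes of lymphocytes, interferon responses and antigen presentation were higher in Ptgs-/- tumors, and genes of CXCR2 ligands, neutrophils and mitosis were lower, as were Il1b and Il6. Of 14550 genes tested, 1763 (12.1%) were higher and 1597 (11%) lower in Ptgs-/- tumors at an FDR at or under 0.05 by the quasi-likelihood test of edgeR, adjusted over all genes by Benjamini-Hochberg, and these are the genes said below to rise, fall or pass. The first share is the background for members of a list that rose and the second for members that fell. With a log2 fold change of at least 1.5 in size as well, 457 genes (3.14%) were called higher and 147 (1.01%) lower. The groups of tumors did not overlap in 437 of the 457 and in 141 of the 147. The share of all 14550 genes with groups apart is not given here, so groups apart only describes a gene's values. The rule for the largest rises and falls required groups apart, so for those genes it is no result. Without Ptgs-/- replicate 2 the genes that passed numbered 1156 higher and 906 lower, and without Ptgs+/+ replicate 2 the lower ones numbered 1052. Without Ptgs-/- replicate 3, 1054 passed as lower and 235 were called lower. At 4-fold or more the called genes numbered 215 higher and 89 lower. The median log2 fold change of all genes was −0.01, and the median of each list below is to be read beside that value. Of the 604 called genes, 534 were protein-coding. Of 656 genes on the 52 lists used here, 571 were tested, and they held 106 of the 457 genes called higher and 29 of the 147 called lower.

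Both targeted genes were lower in Ptgs-/- tumors. Ptgs2 (ENSMUSG00000032487, chromosome 1 from 150100031 to 150108227) stood at 353, 301, 96.5 and 282 CPM in Ptgs+/+ tumors and 73.8, 26.9 and 26 CPM in Ptgs-/- tumors (log2 fold change −2.62, SE 0.46, edgeR's adjusted p = 0.00229), and Ptgs1 (ENSMUSG00000047250, chromosome 2 from 36230426 to 36252272) at 173, 161, 159 and 128 CPM in Ptgs+/+ tumors and 104, 76 and 95.7 CPM in Ptgs-/- tumors (log2 fold change −0.76, SE 0.13, edgeR's adjusted p = 0.00202). No Ptgs-/- tumor reached the lowest Ptgs+/+ tumor for either gene, though for Ptgs2 the gap was narrow because Ptgs+/+ replicate 3 was low. Reads from 3′ ends need not cover an edited exon, so these levels do not check the disruption. In bulk tumors fewer cells of a type and less RNA per cell cannot be told apart, here or for any gene below.

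Most PGE2 genes around the COX enzymes did not pass. Of 13 genes for the synthesis, transport, breakdown and receptors of PGE2, 2 rose, 4 fell and 7 did not pass, with a median of −0.27. Of all genes tested 12.1% rose and 11% fell. The targeted genes Ptgs1 and Ptgs2 are on this list and are 2 of the 4 that fell. Without Ptgs-/- replicate 3, 2 fell, and without Ptgs+/+ replicate 2 or 4 or Ptgs-/- replicate 2, 1 rose. Ptges, the inducible PGE2 synthase, stood at 161, 170, 156 and 155 CPM in Ptgs+/+ tumors and 125, 92.3 and 90.9 CPM in Ptgs-/- tumors (log2 fold change −0.64, SE 0.15, edgeR's adjusted p = 0.00968), and Ptger4, the gene of EP4, at 16.8, 13.1, 17.9 and 19.6 CPM in Ptgs+/+ tumors and 27.1, 33.2 and 39.3 CPM in Ptgs-/- tumors (log2 fold change 0.98, SE 0.17, edgeR's adjusted p = 0.0023). The groups did not overlap for either. Ptges no longer passed without Ptgs-/- replicate 2 or 3 (edgeR's adjusted p = 0.0586 and 0.0526). Ptger2, the gene of EP2 and named after its values were seen, was low throughout, at 0.856 to 1.82 CPM in Ptgs+/+ and 2.18 to 5.21 CPM in Ptgs-/- tumors (log2 fold change 1.29, SE 0.38, edgeR's adjusted p = 0.029), and did not pass without Ptgs+/+ replicate 2 or 4 or Ptgs-/- replicate 2 (edgeR's adjusted p = 0.0762, 0.0553 and 0.166). Of 8 genes for other prostanoids and leukotrienes 5 rose and none fell. The count was 3 without Ptgs+/+ replicate 1, 2 or 4, and 2 without Ptgs-/- replicate 2, and 1 fell without Ptgs+/+ replicate 1. Thromboxane synthase, Tbxas1, stood at 18.5, 10.7, 20.5 and 16.3 CPM in Ptgs+/+ tumors and 51.2, 69.9 and 59.7 CPM in Ptgs-/- tumors (log2 fold change 1.86, SE 0.19, edgeR's adjusted p = 0.000115), and the 5-lipoxygenase activating protein Alox5ap at 169, 157, 168 and 159 CPM in Ptgs+/+ tumors and 200, 321 and 227 CPM in Ptgs-/- tumors (log2 fold change 0.61, SE 0.14, edgeR's adjusted p = 0.00814). Every Ptgs-/- tumor was above every Ptgs+/+ tumor for both.

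Of 14 genes that cyclic AMP and CREB induce early 5 fell and none rose, with a median of −0.64. Without Ptgs+/+ replicate 3, one of the libraries that stood apart, 8 fell, and without Ptgs+/+ replicate 1 or 4 or Ptgs-/- replicate 2 or 3 the count was 3. Nr4a2, a nuclear receptor, stood at 157, 178, 121 and 106 CPM in Ptgs+/+ tumors and 30.9, 18.5 and 23.7 CPM in Ptgs-/- tumors (log2 fold change −2.53, SE 0.22, edgeR's adjusted p = 3.95e-05). The phosphodiesterase Pde4b, which breaks down cyclic AMP and is induced by it, stood at 42.4, 38.1, 32.4 and 36.2 CPM in Ptgs+/+ tumors and 12.2, 17.5 and 19 CPM in Ptgs-/- tumors (log2 fold change −1.19, SE 0.16, edgeR's adjusted p = 0.000614). Neither gene overlapped between the groups. Nr4a1, at 11.6 to 99.8 CPM in Ptgs+/+ and 16.3 to 37.1 CPM in Ptgs-/- tumors, did overlap and did not pass (log2 fold change −1.51, SE 0.55, edgeR's adjusted p = 0.068), though it did without Ptgs+/+ replicate 3 (log2 fold change −1.87, edgeR's adjusted p = 0.000746). Of 7 genes of the adenosine pathway, another source of cyclic AMP signaling, Adora2a, the gene of an adenosine receptor that raises cyclic AMP, rose (log2 fold change 1.11, SE 0.29, edgeR's adjusted p = 0.0189) and the other 6 did not pass, though 1 fell without Ptgs+/+ replicate 3. Adora2a did not pass without Ptgs+/+ replicate 2 or Ptgs-/- replicate 2 or 3 (edgeR's adjusted p = 0.0541, 0.0715 and 0.0821).

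**Figure D1:**
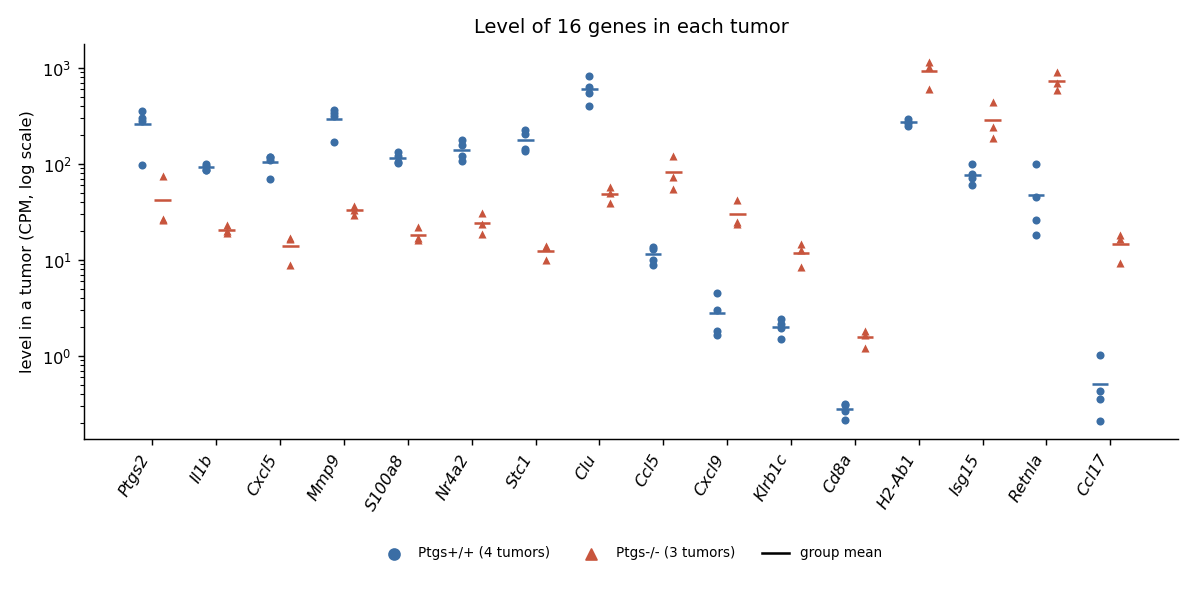
Level of 16 genes in each tumor, in CPM on a log axis, with circles for the 4 Ptgs+/+ tumors, triangles for the 3 Ptgs-/- tumors and a bar at each group's mean. The groups separate for all 16 genes, which were chosen from those given here, with the narrowest gap at Ptgs2.

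NK cell and T cell genes rose together. Of 13 NK cell markers 11 rose and none fell, all 11 by at least 1.5, and the median was 2.10. Xcl1, the chemokine by which NK cells attract type 1 dendritic cells, stood at 1.27, 0.535, 0.628 and 0.626 CPM in Ptgs+/+ tumors and 12, 10.5 and 13.3 CPM in Ptgs-/- tumors (log2 fold change 3.91, SE 0.28, edgeR's adjusted p = 1.47e-05). Il2rb, the receptor chain shared by IL-2 and IL-15, stood at 9.76, 4.71, 11.7 and 10.9 CPM in Ptgs+/+ tumors and 29.3, 42.3 and 74.2 CPM in Ptgs-/- tumors (log2 fold change 2.39, SE 0.32, edgeR's adjusted p = 0.000575). Ptgs-/- replicate 1 had the lowest summed NK cell marker level of its group, 120 CPM against 160 and 245, and still lay above the 34.8 to 54 CPM of Ptgs+/+ tumors. Of 15 T cell genes tested 12 rose and none fell, with a median of 2.36. Trac, the constant region of the T cell receptor alpha chain, stood at 0.635, 1.18, 0.628 and 1.15 CPM in Ptgs+/+ tumors and 3.99, 7.56 and 11 CPM in Ptgs-/- tumors (log2 fold change 3.09, SE 0.37, edgeR's adjusted p = 0.000273), and Cd8a at 0.317, 0.214, 0.269 and 0.313 CPM in Ptgs+/+ tumors and 1.21, 1.84 and 1.67 CPM in Ptgs-/- tumors (log2 fold change 2.44, SE 0.37, edgeR's adjusted p = 0.000944). The level of Cd8a lies near the floor of 3 counts, 0.238 to 0.363 CPM in a library, in Ptgs+/+ tumors.

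Of 6 granule genes tested 4 rose and none fell. Gzma, a protease of killer cell granules, stood at 11.6, 2.89, 10.8 and 15.1 CPM in Ptgs+/+ tumors and 31.9, 34.5 and 76.9 CPM in Ptgs-/- tumors (log2 fold change 2.24, SE 0.46, edgeR's adjusted p = 0.00511), and Nkg7, a granule membrane protein, at 2.06, 1.07, 2.15 and 3.76 CPM in Ptgs+/+ tumors and 8.95, 13.1 and 16.7 CPM in Ptgs-/- tumors (log2 fold change 2.52, SE 0.34, edgeR's adjusted p = 0.000578). The groups did not overlap for either. Prf1, the gene of perforin, and Ifng were not among the genes with enough counts to test. Il12b, the p40 chain of IL-12, which induces IFN-gamma, stood at 1.43, 0.749, 1.97 and 0.418 CPM in Ptgs+/+ tumors and 5.69, 7.46 and 7.19 CPM in Ptgs-/- tumors (log2 fold change 2.52, SE 0.43, edgeR's adjusted p = 0.00195), and Tbx21, the transcription factor T-bet that drives Ifng, at 1.74, 1.28, 2.15 and 2.92 CPM in Ptgs+/+ tumors and 8.95, 12.3 and 16.4 CPM in Ptgs-/- tumors (log2 fold change 2.63, SE 0.29, edgeR's adjusted p = 0.000185). Both were separate between the groups. Of the 9 tested genes of IFN-gamma, the cytokines that induce it and their receptors, 7 rose and none fell.

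Nectin-family ligands moved both ways, and the lymphocyte receptors that bind them rose. All 9 tested genes passed, 6 higher and 3 lower. The count of 6 was 4 without Ptgs+/+ replicate 1, 3 or 4, and 5 without any 1 of the Ptgs-/- tumors. Pvr, which encodes the ligand CD155, fell (57.7, 46.7, 62.4 and 43.9 CPM against 37.4, 27.3 and 27.8 CPM, log2 fold change −0.78, SE 0.15, edgeR's adjusted p = 0.00437), as did Nectin2 (69.1, 76.1, 86.5 and 63.2 CPM against 44.3, 31.6 and 47.1 CPM, log2 fold change −0.85, SE 0.15, edgeR's adjusted p = 0.00236) and Nectin3 (93, 83.9, 76.9 and 73.5 CPM against 57, 41.5 and 44.3 CPM, log2 fold change −0.78, SE 0.13, edgeR's adjusted p = 0.00173). Cd226, the activating receptor for CD155, stood at 1.82, 0.642, 1.08 and 0.626 CPM against 3.02, 7.76 and 6.05 CPM (log2 fold change 2.38, SE 0.41, edgeR's adjusted p = 0.00211). Crtam, another receptor of the family, had 3, 0, 1 and 2 counts in Ptgs+/+ tumors and 17, 37 and 39 counts in Ptgs-/- tumors and passed (edgeR's adjusted p = 0.000423). The groups did not overlap for any of these 5 genes. The ligands Nectin1 (0.71) and Nectin4 (0.67), named after their values were seen, rose on the log2 scale by the values in brackets. Nectin4 did not pass without Ptgs+/+ replicate 1, 3 or 4 or Ptgs-/- replicate 2 or 3 (edgeR's adjusted p = 0.0795, 0.0592, 0.0676, 0.0927 and 0.0932).

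The interferon groups rose almost whole. All 20 type I interferon antiviral response genes rose, 16 of them by at least 1.5, with a median of 1.66, and all 13 tested guanylate-binding proteins and immunity-related GTPases rose, with a median of 1.62. Isg15, the ubiquitin-like modifier whose promoter is shown above, stood at 71.2, 59.7, 77.9 and 100 CPM in Ptgs+/+ tumors and 239, 439 and 184 CPM in Ptgs-/- tumors (log2 fold change 1.90, SE 0.29, edgeR's adjusted p = 0.00102). Igtp, an immunity-related GTPase, stood at 9.76, 8.99, 15.2 and 10.4 CPM in Ptgs+/+ tumors and 27.5, 39.7 and 32.1 CPM in Ptgs-/- tumors (log2 fold change 1.58, SE 0.21, edgeR's adjusted p = 0.00048), and Gbp8, a guanylate-binding protein, at 1.59, 0.749, 1.44 and 1.25 CPM in Ptgs+/+ tumors and 7.74, 12.9 and 16.3 CPM in Ptgs-/- tumors (log2 fold change 3.27, SE 0.32, edgeR's adjusted p = 9.04e-05). In none of these did the groups overlap. Ptgs-/- replicate 2 held the highest level of Isg15 and of the summed antiviral list, whose range was 1064 to 2061 CPM in Ptgs-/- and 370 to 588 CPM in Ptgs+/+ tumors. Of 10 genes of the IFN-gamma receptor and its transcription factors 6 rose and none fell, with a median of 0.59.

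Antigen presentation genes were higher for both classes of MHC molecules. Of 14 class I genes tested 10 rose and none fell, with a median of 0.92, and all 9 class II genes tested rose, with a median of 1.67. H2-K1, a class I heavy chain, stood at 870, 763, 1087 and 937 CPM in Ptgs+/+ tumors and 1481, 2118 and 2420 CPM in Ptgs-/- tumors (log2 fold change 1.13, SE 0.16, edgeR's adjusted p = 0.000699), and the peptide transporter Tap1 at 31.8, 30.4, 45.3 and 38.3 CPM in Ptgs+/+ tumors and 82, 132 and 123 CPM in Ptgs-/- tumors (log2 fold change 1.62, SE 0.19, edgeR's adjusted p = 0.000243). H2-Ab1, a class II chain, stood at 294, 246, 275 and 268 CPM in Ptgs+/+ tumors and 599, 1029 and 1148 CPM in Ptgs-/- tumors (log2 fold change 1.77, SE 0.18, edgeR's adjusted p = 0.00013), and Cd74, the class II invariant chain, at 75.7, 55.5, 70.3 and 71.7 CPM in Ptgs+/+ tumors and 155, 268 and 348 CPM in Ptgs-/- tumors (log2 fold change 1.91, SE 0.22, edgeR's adjusted p = 0.000244). All 4 were separate, with Ptgs-/- replicate 1 the lowest of its group in each. Tap2, named after its values were seen, was at 5.39 CPM in Ptgs+/+ replicate 3 and did not pass (log2 fold change 0.72, SE 0.58, edgeR's adjusted p = 0.411), and that library stood apart as given above.

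Chemokines that draw lymphocytes and dendritic cells rose, and those that draw neutrophils fell. Of 13 genes of the first kind 11 rose and none fell, with a median of 1.69. Ccl17 (ENSMUSG00000031780, chromosome 8 from 94810453 to 94812036), a ligand of CCR4 made by dendritic cells and macrophages, had the largest rise of the genes that met the rule for named genes, at 1.03, 0.428, 0.359 and 0.209 CPM in Ptgs+/+ tumors and 9.32, 16.7 and 18.3 CPM in Ptgs-/- tumors (log2 fold change 4.77, SE 0.48, edgeR's adjusted p = 0.000117). Cxcl9, which IFN-gamma induces and which acts on CXCR3, stood at 1.67, 1.82, 4.58 and 3.03 CPM in Ptgs+/+ tumors and 24.7, 23.5 and 42.4 CPM in Ptgs-/- tumors (log2 fold change 3.44, SE 0.34, edgeR's adjusted p = 0.000101), and Ccl5 at 13.1, 8.89, 13.6 and 10.1 CPM in Ptgs+/+ tumors and 54.6, 73.4 and 120 CPM in Ptgs-/- tumors (log2 fold change 2.85, SE 0.26, edgeR's adjusted p = 6.12e-05). The groups were separate for all 3 chemokines. Of 11 CC chemokines and receptors of monocytes and eosinophils 2 rose, the receptor Ccr2 (189, 145, 140 and 166 CPM against 364, 657 and 598 CPM, log2 fold change 1.75, SE 0.18, edgeR's adjusted p = 0.00013) and Ccl24 (5, 3.75, 5.74 and 3.03 CPM against 10.3, 14.4 and 11.9 CPM, log2 fold change 1.47, SE 0.42, edgeR's adjusted p = 0.0261), and none fell. Ccl24, an attractant of eosinophils, did not pass without Ptgs+/+ replicate 2 or 4 or Ptgs-/- replicate 2 or 3 (edgeR's adjusted p = 0.0691, 0.064, 0.0896 and 0.0522).

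All 7 tested CXCR2 ligands, platelet chemokines and receptors fell, with a median of −2.65. Cxcl5 stood at 110, 117, 70 and 119 CPM in Ptgs+/+ tumors and 16.8, 8.78 and 16.7 CPM in Ptgs-/- tumors (log2 fold change −2.88, SE 0.25, edgeR's adjusted p = 3.95e-05), Cxcl1 at 28.9, 16.1, 11.7 and 36.1 CPM in Ptgs+/+ tumors and 5.93, 2.66 and 2.72 CPM in Ptgs-/- tumors (log2 fold change −2.65, SE 0.42, edgeR's adjusted p = 0.00135), and Ppbp, a chemokine stored in platelets, at 24.4, 22.3, 19.9 and 13.9 CPM in Ptgs+/+ tumors and 0.968, 0.306 and 0.701 CPM in Ptgs-/- tumors (log2 fold change −4.93, SE 0.32, edgeR's adjusted p = 1.27e-05). No Ptgs-/- tumor reached any Ptgs+/+ tumor for these 3 ligands. Cxcr2 itself, the receptor on neutrophils, stood at 13.1, 10.6, 7.54 and 11.7 CPM in Ptgs+/+ tumors and 1.33, 2.35 and 2.63 CPM in Ptgs-/- tumors (log2 fold change −2.32, SE 0.28, edgeR's adjusted p = 0.00031). Of 13 neutrophil granule and surface genes tested 8 fell and none rose, with a median of −1.76. Mmp9, the gelatinase of neutrophil granules that other cells also make, stood at 340, 361, 168 and 313 CPM in Ptgs+/+ tumors and 29.4, 32.7 and 36.2 CPM in Ptgs-/- tumors (log2 fold change −3.17, SE 0.26, edgeR's adjusted p = 3.63e-05), and S100a8, a subunit of calprotectin, at 132, 121, 105 and 102 CPM in Ptgs+/+ tumors and 16.8, 16.2 and 21.9 CPM in Ptgs-/- tumors (log2 fold change −2.64, SE 0.16, edgeR's adjusted p = 9.85e-06). The neutrophil marker Ly6g and the granule genes Camp, Ngp and Cd177, named after their values were seen, had too few counts to test in these libraries.

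Il1b, Il6 and Il11 fell as well. Of 7 IL-1 family genes tested 3 fell and none rose, with a median of −0.72. Il1b stood at 99.6, 85.6, 86.9 and 95.7 CPM in Ptgs+/+ tumors and 23.2, 18.9 and 19.9 CPM in Ptgs-/- tumors (log2 fold change −2.15, SE 0.12, edgeR's adjusted p = 6.13e-06). Il1rl1, the receptor of IL-33, stood at 593, 658, 457 and 516 CPM in Ptgs+/+ tumors and 168, 75.9 and 89.5 CPM in Ptgs-/- tumors (log2 fold change −2.32, SE 0.25, edgeR's adjusted p = 0.000158). Il6 stood at 11.3, 4.6, 4.22 and 7.52 CPM in Ptgs+/+ tumors and 0.968, 0.409 and 0.614 CPM in Ptgs-/- tumors (log2 fold change −3.39, SE 0.56, edgeR's adjusted p = 0.00157), and Il11, a relative of IL-6, at 54.7, 45, 70.4 and 44.1 CPM in Ptgs+/+ tumors and 21.4, 12.2 and 14 CPM in Ptgs-/- tumors (log2 fold change −1.76, SE 0.24, edgeR's adjusted p = 0.000604). The groups were separate for all 4. The list of the IL-6 family and colony-stimulating factors with their receptors was mixed, with 2 of 14 genes higher and 4 lower. The 2 higher genes encode receptors of colony-stimulating factors. The count of 4 was 2 without Ptgs+/+ replicate 1, 2 or 4 or Ptgs-/- replicate 2 or 3, and 1 was higher without Ptgs-/- replicate 2. Among the abundant fallen genes, listed after their values were seen, were the acute-phase genes Saa3 (1327, 797, 739 and 1477 CPM against 205, 264 and 223 CPM, log2 fold change −2.23, SE 0.35, edgeR's adjusted p = 0.0013) and Hp (633, 1091, 1367 and 2002 CPM against 54.6, 265 and 485 CPM, log2 fold change −2.25, SE 0.59, edgeR's adjusted p = 0.0186), both induced by IL-1 and IL-6 in the liver. Hp did not pass without Ptgs-/- replicate 2 (edgeR's adjusted p = 0.069). Fat cells express Hp too, and the library with the lowest Hp, Ptgs-/- replicate 1, also had the lowest summed level of fat cell genes, at 906 CPM. The part of fat tissue in this result was not tested.

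**Figure D2:**
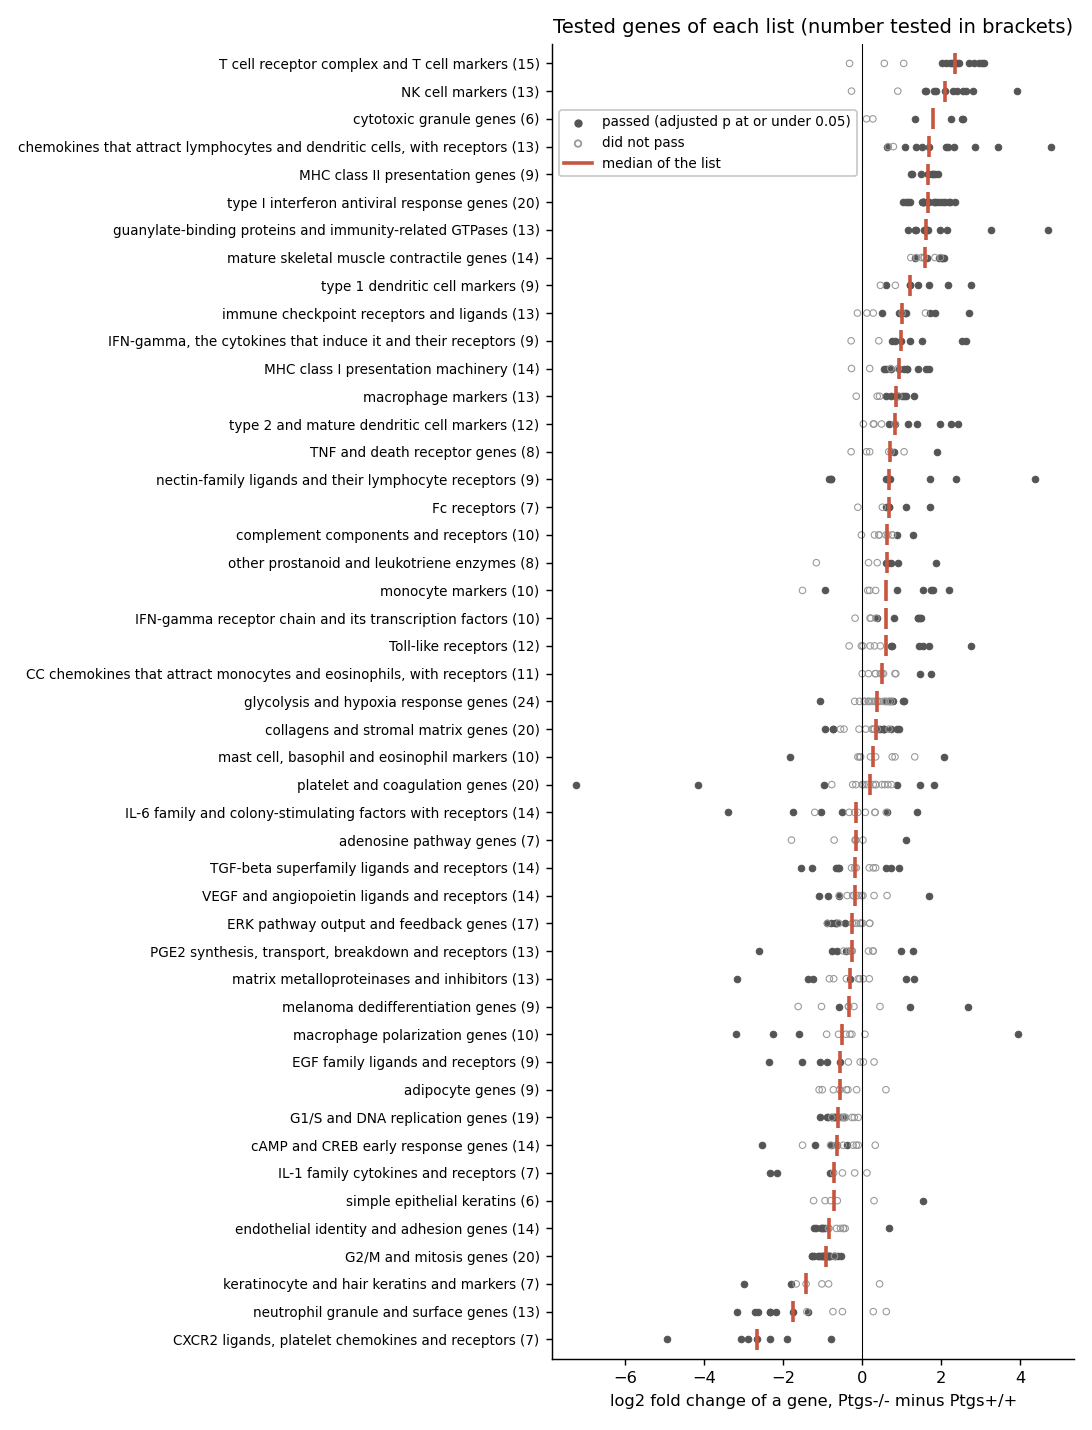
Each row is a gene list with at least 6 tested members, ordered by its median, and each point is the log2 fold change of 1 gene, Ptgs-/- minus Ptgs+/+. Filled points passed at an adjusted p at or under 0.05, open points did not, and red bars mark the medians, which run from −2.65 for CXCR2 ligands, platelet chemokines and receptors to 2.36 for T cell genes.

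Dendritic cell and macrophage genes rose. Of 9 type 1 dendritic cell markers 7 rose and none fell, with a median of 1.20. Xcr1, the receptor of the chemokine Xcl1, stood at 2.14, 2.57, 2.51 and 2.09 CPM in Ptgs+/+ tumors and 8.83, 12.3 and 10.2 CPM in Ptgs-/- tumors (log2 fold change 2.16, SE 0.20, edgeR's adjusted p = 6.39e-05), and Batf3, a transcription factor these cells need, at 9.12, 5.03, 7.54 and 7.1 CPM in Ptgs+/+ tumors and 33.3, 53.8 and 59.9 CPM in Ptgs-/- tumors (log2 fold change 2.76, SE 0.24, edgeR's adjusted p = 4.29e-05). Of 12 markers of type 2 and mature dendritic cells 7 rose and none fell. Mgl2, a lectin of type 2 dendritic cells and some macrophages, stood at 30.7, 14.5, 39.3 and 23 CPM in Ptgs+/+ tumors and 76.7, 181 and 125 CPM in Ptgs-/- tumors (log2 fold change 2.24, SE 0.36, edgeR's adjusted p = 0.00147). The groups were separate for these 3 genes. Of 13 macrophage markers 9 rose and none fell, none by as much as 1.5, with a median of 0.86, and Adgre1, the gene of F4/80, stood at 29.2, 26.5, 29.6 and 26.4 CPM in Ptgs+/+ tumors and 59.7, 72.7 and 75 CPM in Ptgs-/- tumors (log2 fold change 1.31, SE 0.11, edgeR's adjusted p = 3.95e-05).

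Macrophage genes that are used to tell activation states moved in opposite directions. Of 10 such genes 1 rose and 3 fell. Retnla (ENSMUSG00000061100, chromosome 16 from 48842551 to 48844461), induced by IL-4 in macrophages, stood at 98.7, 26, 45.4 and 18 CPM in Ptgs+/+ tumors and 590, 908 and 692 CPM in Ptgs-/- tumors (log2 fold change 3.95, SE 0.46, edgeR's adjusted p = 0.00025), while Arg1, also induced by IL-4, was at 24.8 to 66.7 CPM in Ptgs+/+ and 24.7 to 88.9 CPM in Ptgs-/- tumors and did not pass (log2 fold change 0.07, SE 0.39, edgeR's adjusted p = 0.921). Spp1, which encodes osteopontin, stood at 416, 415, 188 and 337 CPM in Ptgs+/+ tumors and 158, 66.6 and 113 CPM in Ptgs-/- tumors (log2 fold change −1.59, SE 0.30, edgeR's adjusted p = 0.00351), Thbs1, thrombospondin, at 122, 103, 60.1 and 89.3 CPM in Ptgs+/+ tumors and 22.7, 17 and 19.2 CPM in Ptgs-/- tumors (log2 fold change −2.25, SE 0.22, edgeR's adjusted p = 9.71e-05), and Slpi, an inhibitor of neutrophil elastase, at 27.4, 54, 33.6 and 27.9 CPM in Ptgs+/+ tumors and 2.06, 3.78 and 5.52 CPM in Ptgs-/- tumors (log2 fold change −3.20, SE 0.35, edgeR's adjusted p = 0.000191). Retnla and the 3 fallen genes were separate between the groups. Among monocyte markers Ly6c2 (12.8, 13.2, 14 and 11.9 CPM against 36.7, 73 and 67.6 CPM, log2 fold change 2.19, SE 0.23, edgeR's adjusted p = 0.000131) and Plac8 (196, 143, 106 and 172 CPM against 382, 652 and 326 CPM, log2 fold change 1.55, SE 0.25, edgeR's adjusted p = 0.00145) rose and Vcan fell (222, 198, 193 and 181 CPM against 106, 116 and 90.6 CPM, log2 fold change −0.93, SE 0.11, edgeR's adjusted p = 0.00025). Cd5l, a secreted protein of tissue macrophages, stood at 2.93, 3, 7.45 and 2.51 CPM in Ptgs+/+ tumors and 85.7, 73.8 and 35.1 CPM in Ptgs-/- tumors (log2 fold change 4.01, SE 0.41, edgeR's adjusted p = 0.00013), Ear2, a ribonuclease of eosinophils and monocytes, at 3.17, 1.07, 1.71 and 1.04 CPM in Ptgs+/+ tumors and 15.1, 24.8 and 23.2 CPM in Ptgs-/- tumors (log2 fold change 3.54, SE 0.32, edgeR's adjusted p = 5.54e-05), and Clec4b1, a lectin of dendritic cells, at 11.3, 7.92, 12.4 and 7.41 CPM in Ptgs+/+ tumors and 61.3, 117 and 89.9 CPM in Ptgs-/- tumors (log2 fold change 3.19, SE 0.23, edgeR's adjusted p = 1.47e-05). All 3 were separate, which the rule for the largest rises required.

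Smaller groups of immune genes were mixed. Of 12 Toll-like receptor genes 6 rose and none fell, among them Tlr7 (4.12, 4.18, 3.23 and 2.82 CPM against 7.02, 13 and 11.4 CPM, log2 fold change 1.54, SE 0.23, edgeR's adjusted p = 0.000953), and 3 rose without Ptgs-/- replicate 2 or 3, while 1 fell without Ptgs+/+ replicate 3. Of 7 Fc receptor genes 5 rose, and 3 without Ptgs-/- replicate 2, among them Fcgr4, the receptor for IgG2 antibodies (22.8, 15.1, 27.6 and 16.5 CPM against 46.3, 75.7 and 79.2 CPM, log2 fold change 1.71, SE 0.23, edgeR's adjusted p = 0.000535). Of 10 complement genes 2 rose and none fell, and the anaphylatoxin receptor C3ar1 was among them (71.1, 65.5, 74.9 and 62.9 CPM against 162, 174 and 164 CPM, log2 fold change 1.28, SE 0.09, edgeR's adjusted p = 1.47e-05). The count was 5 without Ptgs-/- replicate 1, 4 without Ptgs+/+ replicate 3, and 1 without Ptgs+/+ replicate 1 or 2 or Ptgs-/- replicate 2 or 3. Of 10 mast cell, basophil and eosinophil markers Siglecf rose (0.397, 0.321, 0.718 and 0.94 CPM against 1.94, 3.17 and 2.45 CPM, log2 fold change 2.08, SE 0.36, edgeR's adjusted p = 0.00221) and Hdc, histidine decarboxylase, fell (42.9, 38.8, 40.6 and 47.8 CPM against 6.9, 16.4 and 12.6 CPM, log2 fold change −1.82, SE 0.27, edgeR's adjusted p = 0.000934), and the other 8 did not pass, with 2 higher without Ptgs-/- replicate 1. Of 10 B cell and plasma cell genes 5 had enough counts to test, and 2 rose, Ighm (22.3, 10.3, 18.2 and 11.7 CPM against 40.9, 88.4 and 87.2 CPM, log2 fold change 2.20, SE 0.30, edgeR's adjusted p = 0.000563) and Cd79b (1.03, 1.28, 1.62 and 0.94 CPM against 2.3, 3.06 and 2.72 CPM, log2 fold change 1.14, SE 0.36, edgeR's adjusted p = 0.0407). The count was 1 without any 1 of the libraries other than Ptgs+/+ replicate 3.

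Of 13 immune checkpoint genes 8 rose and none fell, 5 without Ptgs+/+ replicate 2 and 4 without Ptgs-/- replicate 2. Cd274, the gene of PD-L1, stood at 8.01, 4.07, 4.04 and 7.31 CPM against 17.5, 10.8 and 10 CPM (log2 fold change 1.11, SE 0.29, edgeR's adjusted p = 0.0171) and did not pass without Ptgs-/- replicate 1 (edgeR's adjusted p = 0.0662). Tnfrsf4, the gene of the costimulatory receptor OX40, stood at 2.78, 3, 2.87 and 2.61 CPM against 6.41, 13 and 10.8 CPM (log2 fold change 1.84, SE 0.25, edgeR's adjusted p = 0.000578), and Tnfrsf18, the gene of the related receptor GITR, at 3.81, 4.07, 6.01 and 4.7 CPM against 10.4, 18.9 and 16.5 CPM (log2 fold change 1.72, SE 0.24, edgeR's adjusted p = 0.000644). The groups did not overlap for these 3 genes. Of 8 TNF and death receptor genes 2 rose and none fell. Without Ptgs-/- replicate 3, 1 rose, and without Ptgs-/- replicate 2, 1 fell.

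Some gene families named by a shared symbol stem repeated the groups above, and 1 receptor gene went the other way. Of 594 stems, those with at least 4 called genes were examined after their values were seen. All 8 Gbp, 5 Ifit, 6 Oas and 4 Slamf genes rose. With 4 Slamf genes tested, the limit of 4 called genes kept that stem only if all were called. Many Gbp, Ifit and Oas genes are already on the interferon lists above, so these stems are no separate support. The limit also kept larger, mixed stems. Of 219 Slc genes 22 rose and 14 fell, and of 169 Tmem genes 13 rose and 10 fell. The Slamf genes encode surface receptors of lymphocytes and myeloid cells and had a median of 2.26. Of 9 Klra genes, the stem of the Ly49 receptor genes and of a pseudogene, 7 rose and 1 fell. The pseudogene Klra13-ps stood at 0.317, 0.321, 0.269 and 0.731 CPM in Ptgs+/+ tumors and 4.11, 5.72 and 5.79 CPM in Ptgs-/- tumors (log2 fold change 3.66, SE 0.34, edgeR's adjusted p = 6.39e-05), and Klra8, the gene of Ly49H, at 1.19, 0.428, 0.269 and 0.731 CPM in Ptgs+/+ tumors and 2.3, 3.78 and 5.87 CPM in Ptgs-/- tumors (log2 fold change 2.57, SE 0.50, edgeR's adjusted p = 0.00414). Klra4 stood at 257, 263, 240 and 217 CPM in Ptgs+/+ tumors and 142, 111 and 124 CPM in Ptgs-/- tumors, and fell (log2 fold change −0.96, SE 0.16, edgeR's adjusted p = 0.00186). Its groups did not overlap, and the cells from which its reads came were not tested. Ly49 genes are near-identical copies whose reads can be split by the counting. Of 11 Cxcl genes 3 rose and 6 fell.

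Some of the largest falls lay outside the immune lists. Stc1 (ENSMUSG00000014813, chromosome 14 from 69029238 to 69041804), stanniocalcin, a secreted glycoprotein, stood at 206, 225, 137 and 144 CPM in Ptgs+/+ tumors and 13.6, 13.8 and 9.91 CPM in Ptgs-/- tumors (log2 fold change −3.85, SE 0.21, edgeR's adjusted p = 6.13e-06). Clu, the secreted chaperone clusterin, stood at 550, 818, 627 and 404 CPM in Ptgs+/+ tumors and 50.1, 39.3 and 57.2 CPM in Ptgs-/- tumors (log2 fold change −3.62, SE 0.26, edgeR's adjusted p = 1.47e-05). Tfap2b, a transcription factor of neural crest and kidney, stood at 104, 108, 93.6 and 96.7 CPM in Ptgs+/+ tumors and 1.09, 1.23 and 13.4 CPM in Ptgs-/- tumors (log2 fold change −4.19, SE 0.65, edgeR's adjusted p = 0.00119), with Ptgs-/- replicate 3 above the other 2. Foxa2, a transcription factor of endoderm, had 74, 51, 64 and 47 counts in Ptgs+/+ tumors and 0, 0 and 0 counts in Ptgs-/- tumors, so that it was at least 17.7-fold lower in Ptgs-/- tumors with a floor of 3 counts per library. The cornea keratin Krt12 (15.7, 24.7, 12.7 and 11.6 CPM against 0.242, 0.613 and 0.877 CPM, log2 fold change −4.72, SE 0.39, edgeR's adjusted p = 3.89e-05) and the neuropeptide Cck (6.5, 7.07, 5.12 and 4.8 CPM against 0.242, 0.409 and 0.351 CPM, log2 fold change −4.07, SE 0.31, edgeR's adjusted p = 2.41e-05) were near the floor in Ptgs-/- tumors. The groups did not overlap for any of these 6 genes, which the rule for the largest falls required.

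Other large falls included 2 fibrinogen genes and genes of other kinds. The fibrinogen chain Fgb varied among Ptgs+/+ tumors, at 19, 315, 102 and 42 counts in Ptgs+/+ tumors and 1, 0 and 1 counts in Ptgs-/- tumors, and fell (edgeR's adjusted p = 0.00644), and Fgg stood at 1.03, 7.07, 11.4 and 3.13 CPM against 0, 0.715 and 0.175 CPM (log2 fold change −4.16, SE 1.01, edgeR's adjusted p = 0.0126) and did not pass without Ptgs-/- replicate 3 (edgeR's adjusted p = 0.053). Trem1, a receptor on neutrophils and monocytes, stood at 12.8, 10.1, 9.96 and 9.4 CPM against 1.69, 0.613 and 0.526 CPM (log2 fold change −3.53, SE 0.34, edgeR's adjusted p = 8.47e-05), and the predicted gene Gm5483 at 8.65, 5.14, 3.68 and 5.95 CPM against 0.484, 0.204 and 0.614 CPM (log2 fold change −3.70, SE 0.41, edgeR's adjusted p = 0.000188). The matrix protein Tnn stood at 10.6, 15.2, 11.9 and 11.2 CPM against 2.06, 0.306 and 1.05 CPM (log2 fold change −3.45, SE 0.39, edgeR's adjusted p = 0.000218) and the water channel Aqp2 at 10.9, 14.6, 2.24 and 7.31 CPM against 0.121, 0.613 and 0.526 CPM (log2 fold change −4.29, SE 0.68, edgeR's adjusted p = 0.00128). All of these were separate between the groups, again as the rule for the largest falls required. In contrast F7, coagulation factor VII, rose (5.39, 2.68, 4.67 and 2.3 CPM against 12.9, 13.7 and 13.8 CPM, log2 fold change 1.82, SE 0.27, edgeR's adjusted p = 0.000826). Of 20 platelet and coagulation genes 3 rose, 3 fell and 14 did not pass, while 12.1% of all genes tested rose and 11% fell. Among the largest rises outside immune lists were Fam19a5, a secreted chemokine-like protein (0.635, 0.535, 0.539 and 0.522 CPM against 12, 6.84 and 11.7 CPM, log2 fold change 4.15, SE 0.26, edgeR's adjusted p = 9.85e-06), Bmp8a (0.238, 0.107, 0.359 and 0.522 CPM against 1.94, 9.5 and 4.56 CPM, log2 fold change 4.08, SE 0.68, edgeR's adjusted p = 0.00164), Greb1 (5.55, 1.28, 1.26 and 1.88 CPM against 18, 60.4 and 22 CPM, log2 fold change 3.70, SE 0.53, edgeR's adjusted p = 0.000775) and Il31ra (1.51, 0.321, 1.26 and 0.835 CPM against 3.63, 22.8 and 4.82 CPM, log2 fold change 3.35, SE 0.68, edgeR's adjusted p = 0.00479). For Greb1 and Il31ra, Ptgs-/- replicate 2 lay well above the other Ptgs-/- tumors.

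Of 9 EGF family genes tested 5 fell and none rose, and 3 fell without Ptgs-/- replicate 2. Ereg stood at 166, 171, 138 and 109 CPM in Ptgs+/+ tumors and 38.6, 21.3 and 26.2 CPM in Ptgs-/- tumors (log2 fold change −2.35, SE 0.22, edgeR's adjusted p = 6.39e-05), and Areg, which encodes amphiregulin and whose promoter is shown above, at 36.5, 45.3, 32.7 and 41.7 CPM in Ptgs+/+ tumors and 22, 15.6 and 18.2 CPM in Ptgs-/- tumors (log2 fold change −1.07, SE 0.19, edgeR's adjusted p = 0.00272). Both were separate. Of 17 genes of ERK output and feedback 6 fell and none rose, 3 without Ptgs-/- replicate 2, none by as much as 1.5, with a median of −0.25, among them Phlda1 (267, 237, 287 and 264 CPM against 181, 141 and 137 CPM, log2 fold change −0.79, SE 0.11, edgeR's adjusted p = 0.000763) and Spred1 (214, 235, 181 and 169 CPM against 142, 116 and 130 CPM, log2 fold change −0.63, SE 0.13, edgeR's adjusted p = 0.00651). Of 9 melanoma dedifferentiation genes Axl fell (515, 607, 517 and 443 CPM against 345, 365 and 331 CPM, log2 fold change −0.58, SE 0.13, edgeR's adjusted p = 0.00743), and Sox9 (118, 105, 142 and 120 CPM against 355, 208 and 277 CPM, log2 fold change 1.21, SE 0.16, edgeR's adjusted p = 0.000549) and Ngfr rose. Without Ptgs+/+ replicate 3, 3 fell. Ngfr varied within both groups, at 9.68, 1.28, 2.33 and 6.16 CPM in Ptgs+/+ tumors and 6.53, 71.2 and 17 CPM in Ptgs-/- tumors (log2 fold change 2.68, SE 0.77, edgeR's adjusted p = 0.0276), and the groups overlapped. Without Ptgs-/- replicate 2 its log2 fold change was 1.27 (edgeR's adjusted p = 0.254), and it did not pass without Ptgs+/+ replicate 2, 3 or 4 either (0.0703, 0.0509 and 0.052).

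TGF-beta superfamily genes moved both ways, and most VEGF family genes did not pass. Of 14 TGF-beta superfamily genes 3 rose and 5 fell. The risen were 1 without Ptgs+/+ replicate 1 or 2 or Ptgs-/- replicate 1 or 2, and the fallen 3 without Ptgs-/- replicate 2 or 3. Inhba, the activin subunit, stood at 64.1, 48.5, 57.6 and 49.6 CPM against 31.1, 15.5 and 21.7 CPM (log2 fold change −1.28, SE 0.20, edgeR's adjusted p = 0.00119). Of 14 VEGF and angiopoietin genes 1 rose, a share under the 12.1% of all genes, and 3 fell. Vegfc, a growth factor of lymphatic vessels, stood at 3.33, 2.78, 0.539 and 3.34 CPM against 13.3, 6.13 and 5.09 CPM (log2 fold change 1.69, SE 0.47, edgeR's adjusted p = 0.0241) and did not pass without Ptgs+/+ replicate 2 or Ptgs-/- replicate 1 (edgeR's adjusted p = 0.052 and 0.1). Pgf, placental growth factor, stood at 17.5, 14.8, 23.7 and 14.3 CPM against 11, 7.25 and 6.66 CPM (log2 fold change −1.09, SE 0.23, edgeR's adjusted p = 0.00652). Of 13 matrix metalloproteinases and inhibitors 2 rose (1 without Ptgs+/+ replicate 2, 3 or 4 or Ptgs-/- replicate 1) and 4 fell, among the latter Timp1, an inhibitor of these enzymes (657, 752, 593 and 586 CPM against 314, 217 and 286 CPM, log2 fold change −1.25, SE 0.14, edgeR's adjusted p = 0.000218). Pgf and Timp1 were separate between the groups.

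Some endothelial and red blood cell genes were lower. Of 14 endothelial genes 6 fell and 1 rose, with a median of −0.85, and their summed level was 848 to 929 CPM in Ptgs+/+ and 336 to 641 CPM in Ptgs-/- tumors. Pecam1, the gene of CD31, stood at 114, 116, 124 and 128 CPM in Ptgs+/+ tumors and 34.2, 68.4 and 83.4 CPM in Ptgs-/- tumors (log2 fold change −0.95, SE 0.24, edgeR's adjusted p = 0.0157), and the junction gene Esam at 129, 147, 148 and 147 CPM in Ptgs+/+ tumors and 36.3, 59.6 and 88.6 CPM in Ptgs-/- tumors (log2 fold change −1.21, SE 0.25, edgeR's adjusted p = 0.00507). Vcam1, an adhesion molecule of activated endothelium and stroma, stood at 221, 275, 235 and 257 CPM in Ptgs+/+ tumors and 112, 94.1 and 121 CPM in Ptgs-/- tumors (log2 fold change −1.18, SE 0.16, edgeR's adjusted p = 0.000628). The gene that rose was Icam1 (12.3, 11.8, 9.51 and 10.5 CPM against 13.8, 17.8 and 21.7 CPM, log2 fold change 0.69, SE 0.17, edgeR's adjusted p = 0.0143), which interferon induces, and it did not pass without Ptgs-/- replicate 3 (edgeR's adjusted p = 0.0607). All 4 tested red blood cell genes, near-identical globin copies, fell, among them Hbb-bs at 636, 316, 940 and 448 CPM in Ptgs+/+ tumors and 245, 282 and 183 CPM in Ptgs-/- tumors (log2 fold change −1.31, SE 0.33, edgeR's adjusted p = 0.0151). None of the 4 passed without Ptgs-/- replicate 3 (Hbb-bs: edgeR's adjusted p = 0.0647), 1 did without Ptgs-/- replicate 1 and 2 did without Ptgs+/+ replicate 1.

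Mitosis genes fell in a narrow band. Of 20 G2/M genes 19 fell, none by as much as 1.5, with a median of −0.91 and a range of −1.27 to −0.54. Plk1, a kinase of mitotic entry, stood at 363, 498, 317 and 308 CPM in Ptgs+/+ tumors and 144, 158 and 162 CPM in Ptgs-/- tumors (log2 fold change −1.26, SE 0.19, edgeR's adjusted p = 0.000867), and Cenpe, a kinetochore motor, at 195, 215, 194 and 148 CPM in Ptgs+/+ tumors and 77.6, 84.2 and 95.3 CPM in Ptgs-/- tumors (log2 fold change −1.13, SE 0.13, edgeR's adjusted p = 0.000277). The groups were separate for both. Of 19 G1/S and replication genes 11 fell and none rose, 6 without Ptgs-/- replicate 2, with a median of −0.62, and Rrm2, a ribonucleotide reductase subunit, stood at 65.7, 72, 38 and 56 CPM in Ptgs+/+ tumors and 22.5, 29.5 and 30.4 CPM in Ptgs-/- tumors (log2 fold change −1.07, SE 0.21, edgeR's adjusted p = 0.00398). Of 24 glycolysis and hypoxia genes 6 rose and 1 fell, with a median of 0.38, and the count of 6 was 1 without Ptgs+/+ replicate 1 or 2 and 0 without Ptgs-/- replicate 1. None fell without Ptgs+/+ replicate 1, 3 or 4 or Ptgs-/- replicate 3. Ndrg1, a hypoxia-induced gene, stood at 187, 116, 233 and 244 CPM against 593, 314 and 325 CPM (log2 fold change 1.07, SE 0.27, edgeR's adjusted p = 0.0145), and at an adjusted p of 0.0577 by edgeR without Ptgs-/- replicate 1.

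Type I collagen and fibronectin genes rose, and basement membrane collagen genes fell. Of 20 stromal matrix genes 8 rose and 3 fell, and the risen were 5 without Ptgs+/+ replicate 2 and 3 without Ptgs-/- replicate 2. Col1a2, a chain of type I collagen, stood at 3306, 2304, 2364 and 3031 CPM in Ptgs+/+ tumors and 4726, 6268 and 4667 CPM in Ptgs-/- tumors (log2 fold change 0.92, SE 0.16, edgeR's adjusted p = 0.00197), and Fn1, fibronectin, at 748, 550, 831 and 794 CPM in Ptgs+/+ tumors and 1548, 1187 and 1324 CPM in Ptgs-/- tumors (log2 fold change 0.89, SE 0.15, edgeR's adjusted p = 0.00169). Col4a1 and Col4a2, chains of basement membrane collagen that lie side by side in the genome, stood at 394, 424, 401 and 479 CPM against 224, 240 and 300 CPM (log2 fold change −0.74, SE 0.13, edgeR's adjusted p = 0.00195) and 177, 206, 212 and 202 CPM against 97.3, 108 and 155 CPM (log2 fold change −0.73, SE 0.15, edgeR's adjusted p = 0.00575). The groups did not overlap for any of the 4.

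**Figure D3:**
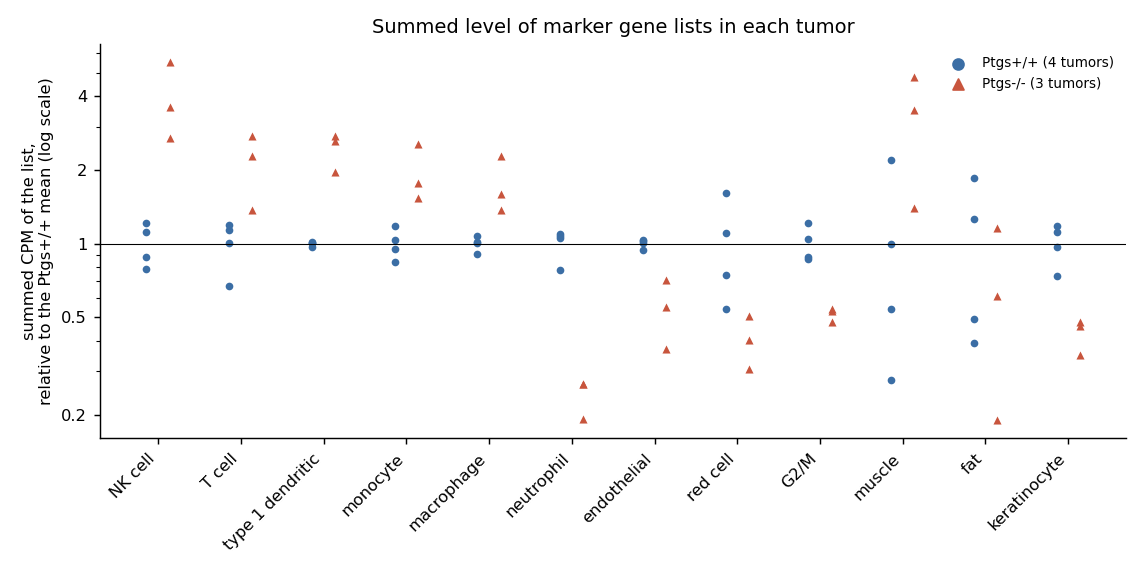
Summed CPM of 12 marker lists in each tumor, divided by the mean of the 4 Ptgs+/+ tumors, on a log axis, with circles for Ptgs+/+ and triangles for Ptgs-/- tumors. The NK cell, T cell and neutrophil lists separate the groups, and the muscle and fat lists overlap between them.

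Markers of tissue around the tumor varied from tumor to tumor. Of 14 mature skeletal muscle genes 6 rose, with a median of 1.60, but their summed level overlapped, at 48, 88.3, 195 and 24.6 CPM in Ptgs+/+ tumors and 425, 314 and 124 CPM in Ptgs-/- tumors. None passed without Ptgs+/+ replicate 1 or 4 or Ptgs-/- replicate 1 or 2, 1 did without Ptgs+/+ replicate 2, and 10 or 11 did without Ptgs-/- replicate 3 or Ptgs+/+ replicate 3. Chrna1 (ENSMUSG00000027107, chromosome 2 from 73563215 to 73580338), the acetylcholine receptor subunit that denervated and regenerating muscle raises, did not follow that order and stood at 16.3, 10.6, 10.6 and 6.37 CPM in Ptgs+/+ tumors and 106, 77.5 and 116 CPM in Ptgs-/- tumors (log2 fold change 3.17, SE 0.27, edgeR's adjusted p = 3.95e-05). None of 9 fat cell genes passed, and their summed level ran from 1881 to 8911 CPM in Ptgs+/+ and from 906 to 5534 CPM in Ptgs-/- tumors. Of 6 simple epithelial keratins tested 1 rose, Krt20 (20.1, 25.7, 14.5 and 16 CPM against 58.1, 46.9 and 62.3 CPM, log2 fold change 1.55, SE 0.19, edgeR's adjusted p = 0.000334). The other 5 did not pass, and the median of the 6 was −0.72. Without Ptgs-/- replicate 3, 3 of these keratins fell. Of 7 keratinocyte genes tested 2 fell, Krt5 (1.82, 4.71, 3.95 and 3.13 CPM against 0.121, 1.12 and 1.49 CPM, log2 fold change −1.81, SE 0.51, edgeR's adjusted p = 0.026) and Krt6a (40, 51.7, 44.6 and 40.7 CPM against 5.69, 5.82 and 5.35 CPM, log2 fold change −2.98, SE 0.21, edgeR's adjusted p = 1.47e-05). Krt5 did not pass without Ptgs+/+ replicate 2 or Ptgs-/- replicate 2 (edgeR's adjusted p = 0.0686 and 0.067). The keratinocyte genes that fell numbered 5 without Ptgs+/+ replicate 1, 4 without Ptgs-/- replicate 3, and 1 without Ptgs+/+ replicate 2 or Ptgs-/- replicate 2. How much these tissues contributed to other genes was not tested.

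Genes of 4 chromosomes were shifted as a body, a pattern examined after the values were seen. Over 9068 genes with a mean of at least 10 CPM, the median log2 fold change was −0.06, and it lay between −0.11 and 0.05 on 16 of 20 chromosomes. It was 0.22 over the 374 genes of chromosome 15, −0.28 over the 461 of chromosome 3, −0.22 over the 300 of chromosome 12 and −0.17 over the 576 of chromosome 5. On chromosome 15, 74.9% of these genes had a positive fold change and 95 rose against 8 that fell. On chromosome 3, 21.7% were positive and 161 fell against 26 that rose. Chromosome 12 had 26.3% positive, with 85 fallen and 19 risen, and chromosome 5 had 30.4% positive, with 123 fallen and 45 risen.

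The chromosome shifts were seen in each tumor and along the length of each chromosome. Each tumor's median level on a chromosome was taken against the mean of the 4 Ptgs+/+ tumors, on the log2(CPM + 0.5) scale. On chromosome 15 it was 0.00, 0.04, 0.03 and −0.03 in Ptgs+/+ tumors and 0.26, 0.17 and 0.21 in Ptgs-/- tumors. On chromosome 3 it was 0.05, 0.07, −0.02 and −0.04 in Ptgs+/+ tumors and −0.20, −0.31 and −0.29 in Ptgs-/- tumors. On chromosome 12 the Ptgs-/- tumors lay between −0.20 and −0.18 and on chromosome 5 between −0.20 and −0.13, against −0.03 to 0.04 in Ptgs+/+ tumors on both. In windows of 20 megabases with at least 20 genes the median ran from 0.12 to 0.31 on chromosome 15, from −0.44 to −0.19 on chromosome 3, from −0.29 to −0.10 on chromosome 12 and from −0.27 to −0.11 on chromosome 5. Genes that were not called had medians of 0.22, −0.28, −0.23 and −0.17 on the 4 chromosomes. These shifts are small beside the fold threshold, no test was made of them, and their cause was not tested.

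**Figure D4:**
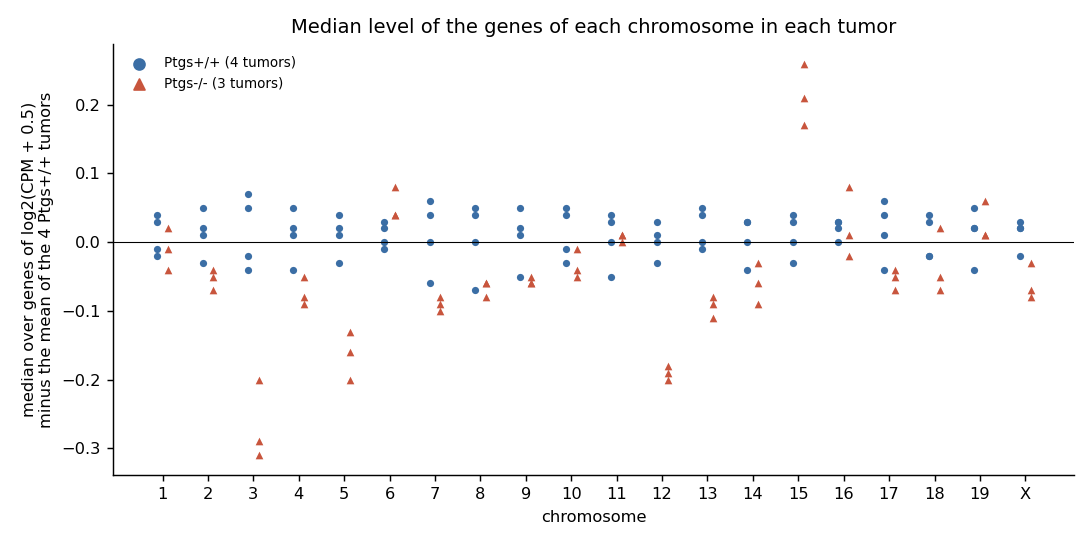
For each chromosome, the median over its genes of the level in a tumor, as log2(CPM + 0.5) minus the mean of the 4 Ptgs+/+ tumors, with circles for Ptgs+/+ and triangles for Ptgs-/- tumors. The Ptgs-/- tumors lie at 0.17 to 0.26 on chromosome 15 and at −0.31 to −0.20 on chromosome 3, while the Ptgs+/+ tumors stay within −0.07 to 0.07 throughout.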

How the data were processed

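The authors made QuantSeq 3′ libraries from 500 ng of total RNA per tumor, trimmed the reads with BBDUK, fqtrim and cutadapt, ran STAR against GRCm38, and used featureCounts with the Ensembl version 86 genes. The authors deposited these raw counts per gene and tumor, neither normalized nor pooled. Strand, multiply mapped reads and molecular identifiers in the counting are not given in the sources used here, so near-identical, overlapping and antisense genes are uncertain. Because the reads come from 3′ ends, CPM carries no correction for gene length, and levels are compared between tumors, not as molecules per cell.

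Of 45706 genes listed, 45143 were given symbols and coordinates from GENCODE M21 (GRCm38). In R 4.3.3, edgeR 4.0.16 filtered genes with filterByExpr, set TMM factors (0.963 to 1.040), and fitted all 10 libraries in 1 quasi-likelihood model with 3 groups, from which Ptgs-/- minus Ptgs+/+ was taken. Benjamini-Hochberg adjustment ran over the 14550 genes tested, and SE is the log2 fold change divided by the square root of F. CPM are counts per 1000000 of the library total times its TMM factor. On counts simulated from these libraries, with 14310 genes run and 200 changed by a log2 fold of 2, the fit called 186 of the 200 and 4 others. Alternatives were DESeq2 1.42.0, library size alone, other filters, the likelihood ratio test and the 7 libraries alone. Others were the title code as a term, 1 title code alone, the title number as a block, and each library left out.

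The comparison, the 52 gene lists and the questions asked of them were chosen with earlier results of these data known. Genes are named if targeted, if among the 15 largest rises or falls of called genes with groups apart and a mean of at least 5 CPM in the higher group, or if the first 2 or the 4 smallest p-values of a list, and other genes were named after their values were seen. Some genes under the rule are not reported here. Of the listed symbols 2 were not found. Promoters and their windows are from RefSeq (GRCm38.p6).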

Additional observations from a re-analysis of the deposited data

Results flagged for a closer look

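In 9 of 138 genes named here, 1 of the 4 Ptgs+/+ libraries stood apart from the other 3 by more than Dixon's 95% limit for 4 samples, where chance alone gives about 1 in 20. In Ptgs+/+ replicate 1, Greb1 was at 5.55 CPM against 1.26 to 1.88 in the others, Xcl1 at 1.27 against 0.535 to 0.628, Fam19a5 at 0.635 against 0.522 to 0.539, and Esam at 129 against 147 to 148. In Ptgs+/+ replicate 3, Cd5l was at 7.45 CPM against 2.51 to 3, Cxcl5 at 70 against 110 to 119, and Tm4sf1 at 236 against 464 to 502. In Ptgs+/+ replicate 4, Klra13-ps was at 0.731 CPM against 0.269 to 0.321, and Cd52 at 112 against 127 to 129. For all 9 genes the Ptgs-/- tumors lay on one side of every Ptgs+/+ tumor. All but Esam and Cxcl5 were among the largest rises or the most abundant called genes, which were chosen with groups apart. Groups of 3 were not examined in this way.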

How the results depend on the processing

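Calls were recomputed under 17 alternatives, 1 of them, without both Ptgs+/+ replicate 3 and Ptgs-/- replicate 1, chosen after seeing the data. None of the 604 called genes changed sign under any alternative that tested it. The counts called higher and lower (457 and 147) were 248 and 66 with at least 10 counts in every library compared, where 12398 genes were tested and 294 of the 298 called genes still tested were called again. With 1 library left out they ran from 355 to 569 and from 122 to 235, and the genes that passed from 1156 to 1953 higher and from 906 to 1928 lower (1763 and 1597). Without the libraries that carry the title code of Ptgs+/+ replicate 4 and Ptgs-/- replicate 3, 986 passed as lower. Other counts stayed within 1.5 times. Library size alone in place of TMM moved the median of all genes from −0.01 to 0.05. Whether the numbers in the titles pair the tumors is not given. The correlations of deviations were 0.36, −0.19, 0.24 and 0.06 for same-numbered tumors and −0.43 to 0.14 for the others. So few tumors cannot decide it. With the replicate block 448 genes were called higher and 162 lower, with 1716 and 1521 passing.

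Of 52 list medians 46 kept their sign under all alternatives, and the 6 others were the IL-6 family and colony-stimulating factor (−0.34 to 0.13), nectin family (−0.04 to 0.77), mast cell, basophil and eosinophil (−0.51 to 0.69), melanoma lineage (−0.02 to 0.32), adipocyte (−1.58 to 0.11) and simple keratin (−2.57 to 0.21) lists. The medians of chromosomes 15, 3, 12 and 5 ran from 0.18 to 0.28, from −0.33 to −0.22, from −0.24 to −0.16 and from −0.17 to −0.11. Arg1, which did not pass, had a negative log2 fold change with the replicate block (−0.15), without Ptgs+/+ replicate 2 (−0.15), without Ptgs-/- replicate 1 (−0.58) and without both libraries that stood apart (−0.44), and with 1 library left out it ran from −0.58 to 0.42. Genes near the floor of 0.238 to 0.363 CPM, such as Cd8a, rest on few counts. The floors cover counting error only.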

Other observations

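The genes described here are among the 15 most abundant called genes in each direction whose groups did not overlap, and were chosen after their values were seen. Among the fallen were several secreted regulators of growth and guidance. Slit2, a guidance cue for axons and vessels, stood at 223, 280, 224 and 202 CPM in Ptgs+/+ tumors and 50.7, 34.4 and 68.4 CPM in Ptgs-/- tumors (log2 fold change −2.18, SE 0.20, edgeR's adjusted p = 7.21e-05). Fst, the activin inhibitor follistatin, stood at 269, 197, 106 and 310 CPM in Ptgs+/+ tumors and 52.4, 37.9 and 24.9 CPM in Ptgs-/- tumors (log2 fold change −2.53, SE 0.35, edgeR's adjusted p = 0.000628), so that this inhibitor fell beside the activin subunit gene Inhba. Cxcl14, a chemokine of skin and epithelium, stood at 189, 219, 120 and 186 CPM in Ptgs+/+ tumors and 15.4, 48 and 41.4 CPM in Ptgs-/- tumors (log2 fold change −2.35, SE 0.36, edgeR's adjusted p = 0.00102), and Mgp, an inhibitor of calcification, at 448, 605, 555 and 343 CPM in Ptgs+/+ tumors and 92.2, 164 and 150 CPM in Ptgs-/- tumors (log2 fold change −1.85, SE 0.22, edgeR's adjusted p = 0.00031). The highest Ptgs-/- tumor lay below the lowest Ptgs+/+ tumor for all 4, as the choice of these genes required.

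Enzymes and signaling genes fell as well. Cyp26b1, which breaks down retinoic acid, stood at 329, 346, 280 and 223 CPM in Ptgs+/+ tumors and 82.3, 58.5 and 50.5 CPM in Ptgs-/- tumors (log2 fold change −2.21, SE 0.20, edgeR's adjusted p = 5.41e-05), Akr1c18, which inactivates progesterone, at 712, 687, 319 and 444 CPM in Ptgs+/+ tumors and 185, 127 and 112 CPM in Ptgs-/- tumors (log2 fold change −1.93, SE 0.27, edgeR's adjusted p = 0.000673), and Rgs16, which shortens signaling by G proteins, at 337, 320, 168 and 234 CPM in Ptgs+/+ tumors and 36.5, 23.5 and 22.5 CPM in Ptgs-/- tumors (log2 fold change −3.27, SE 0.27, edgeR's adjusted p = 3.63e-05). The tetraspanin-like gene Tm4sf1 stood at 500, 502, 236 and 464 CPM in Ptgs+/+ tumors and 176, 126 and 141 CPM in Ptgs-/- tumors (log2 fold change −1.53, SE 0.24, edgeR's adjusted p = 0.00122). For Fst, Rgs16, Akr1c18 and Tm4sf1, Ptgs+/+ replicate 3 was the lowest of its group. Among the risen, Cybb, the catalytic subunit of the phagocyte oxidase, stood at 76.5, 55, 82.2 and 59.3 CPM in Ptgs+/+ tumors and 213, 278 and 296 CPM in Ptgs-/- tumors (log2 fold change 1.94, SE 0.16, edgeR's adjusted p = 3.63e-05), and Cd52, a surface glycoprotein of leukocytes, at 129, 128, 127 and 112 CPM in Ptgs+/+ tumors and 275, 443 and 500 CPM in Ptgs-/- tumors (log2 fold change 1.71, SE 0.18, edgeR's adjusted p = 0.000136). The interferon-induced DNA-binding protein genes Ifi203 (74.9, 41.9, 89.1 and 72.5 CPM against 161, 304 and 182 CPM, log2 fold change 1.63, SE 0.27, edgeR's adjusted p = 0.00167) and Mndal (57.1, 38.6, 72.5 and 54.7 CPM against 145, 246 and 157 CPM, log2 fold change 1.71, SE 0.23, edgeR's adjusted p = 0.000563) overlap on chromosome 1, so their reads may be split between them.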
